A study of Homo sapiens with 14 samples.

Results

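The genes described here encode the subunits of TFIIH, the general transcription factor that also opens damaged DNA in nucleotide excision repair. The members were fixed by name: Ensembl identifiers of the deposited count table were mapped to symbols, and the 10 subunit genes were taken, all 10 of which were among the 25952 genes of the table. Of these, 9 passed the filter on low counts and were tested among 19142 genes, and GTF2H4 did not pass it. The study sequenced total RNA of NT2 cells, a human embryonal carcinoma line, and by its title asked how excision repair capacity changes as these cells differentiate. The groups were untreated NT2 cells at day 0 and cells after 5, 10 and 21 days of all-trans retinoic acid (RA) at 10 µM, used to induce neurons, or of bone morphogenetic protein 2 (BMP2), used to induce muscle cells, with 2 libraries in each of the 7 groups. For BMP2 the protocol gives 30 ng/ml in first tests and 40 ng/ml later, without saying which dose each library had. RA was dissolved in DMSO, and the protocol describes a DMSO control culture, but the reference here is the untreated day 0 cells, which share neither the time in culture nor the solvent.

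TFIIH has a core ring and a kinase module joined to it. In the core, the translocase XPB (gene ERCC3) and the helicase XPD (ERCC2) work with scaffold subunits encoded by GTF2H1, GTF2H2, GTF2H3 and GTF2H4 and with the small stabilising subunit TTDA (GTF2H5). The kinase module, also called the CDK-activating kinase, consists of CDK7, its partner cyclin H (CCNH) and the assembly factor encoded by MNAT1, which also anchors the module to XPD. During transcription initiation XPB helps to melt the promoter and CDK7 phosphorylates the tail of RNA polymerase II, whereas in repair the helicases unwind DNA around a lesion and the kinase module leaves the complex.

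All 10 genes were matched in the RefSeq promoter table (assembly GRCh38.p14), which holds the 250 bases before and 50 bases after each start. With a pair of starts for CDK7, this gave 11 windows of 300 bases. The 4 windows below show members that were called in opposite directions: GTF2H1, higher at BMP2 day 21, GTF2H5, higher at RA day 21, and GTF2H2 and CDK7, both lower under RA. They lie at chr11:18322317-18322616 (GTF2H1, plus strand), chr6:158168100-158168399 (GTF2H5, plus strand), chr5:71067627-71067926 (GTF2H2, minus strand) and chr5:69234636-69234935 (CDK7, plus strand), and are written 5′ to 3′ on the strand of the gene, with matches to the GC box GGGCGG, the ETS-type letters CCGGAAG and the E-box CACGTG on either strand in capitals.
GTF2H1: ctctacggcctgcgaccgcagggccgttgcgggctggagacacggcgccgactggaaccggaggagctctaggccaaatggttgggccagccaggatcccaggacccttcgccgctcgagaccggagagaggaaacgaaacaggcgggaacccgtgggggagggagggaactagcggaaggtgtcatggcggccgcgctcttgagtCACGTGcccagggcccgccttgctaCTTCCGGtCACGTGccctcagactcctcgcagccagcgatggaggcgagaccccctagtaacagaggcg
GTF2H5: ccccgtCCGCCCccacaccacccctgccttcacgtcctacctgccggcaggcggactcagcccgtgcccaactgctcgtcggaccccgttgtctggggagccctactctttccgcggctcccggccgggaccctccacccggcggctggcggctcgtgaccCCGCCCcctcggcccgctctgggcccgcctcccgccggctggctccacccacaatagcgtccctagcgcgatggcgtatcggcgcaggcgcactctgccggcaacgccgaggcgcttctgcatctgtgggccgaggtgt
GTF2H2: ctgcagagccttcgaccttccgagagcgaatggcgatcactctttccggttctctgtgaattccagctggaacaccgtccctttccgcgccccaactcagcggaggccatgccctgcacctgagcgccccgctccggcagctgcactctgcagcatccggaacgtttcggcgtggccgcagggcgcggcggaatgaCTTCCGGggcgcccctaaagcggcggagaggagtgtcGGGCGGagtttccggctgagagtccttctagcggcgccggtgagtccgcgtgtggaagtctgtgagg
CDK7: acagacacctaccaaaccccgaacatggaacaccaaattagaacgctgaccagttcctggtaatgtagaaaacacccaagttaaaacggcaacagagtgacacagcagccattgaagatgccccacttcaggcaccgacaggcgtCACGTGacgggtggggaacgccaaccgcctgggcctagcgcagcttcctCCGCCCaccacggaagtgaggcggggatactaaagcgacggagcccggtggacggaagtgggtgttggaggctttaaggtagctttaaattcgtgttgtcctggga
The GTF2H1 window holds 2 E-box matches (CACGTG) and 1 ETS-type match (CCGGAAG). The GTF2H5 window holds 2 GC-box matches (GGGCGG), the GTF2H2 window 1 GC-box and 1 ETS-type match, and the CDK7 window 1 GC-box and 1 E-box match. Over the 11 windows, GGGCGG occurred in 8, against 45% of the 35116 windows in the table, CCGGAAG in 4 (10.3% of all), CACGTG in 3 (7.26%) and CCAAT in 2 (34.6%), each searched on both strands. The counts for GGGCGG and CACGTG each include both overlapping CDK7 windows. The letters AGGTCA, the RA receptor half-site, occurred in 0 of 11 windows and in 13.8% of all, TATAAA in 0 and in 11.5%, TGACGT in 0 and in 7.98%, and GCGCATGC in 0 and in 3.05%. The direct repeat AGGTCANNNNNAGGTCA was in 0 of 11. These are matches of letters and carry no measurement of binding.

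The libraries held 45773278 to 75754396 counts. Both treatments went with large changes elsewhere: of 12 pluripotency genes, 12 fell under RA and 11 under BMP2 by day 21, and all 14 proliferation genes fell under both. Of all genes tested, 21.1% were called lower at RA day 21 and 22.1% at BMP2 day 21. Proliferation genes summed to 5140 to 5370 CPM (counts scaled to the size of the library) in untreated cells, 1180 to 1280 CPM at RA day 21 and 679 to 1010 CPM at BMP2 day 21. The part that this change in cell cycling plays in the results below was not tested. The labels name neurons and muscle as the aims. The 12 neuronal genes in the table summed to 204 to 256 CPM before treatment and 649 to 685 CPM at RA day 21. Of these 12, 3 rose and 3 fell there, close to the 23.4% and 21.1% of all genes. Their median log2 change was −0.61. SNAP25, which rose, had the largest change of the called neuronal genes (log2 fold change 5.08, SE 0.74, adjusted p = 0.00056, edgeR). The neuronal nuclear marker RBFOX3 was among those that fell (log2 fold change −4.12, SE 0.78, adjusted p = 0.0021, edgeR). The 13 muscle genes summed to 64 to 142 CPM before treatment and 648 to 869 CPM at BMP2 day 21. Of the 11 tested, 6 rose and 1 fell there, against 25% and 22.1% of all genes. LMOD1 (8.58, SE 1.01, adjusted p = 0.00019, edgeR) and ACTA2 (7.18, SE 0.92, 0.00026) had the largest changes. LMOD1 also rose at RA day 21 (8.56, SE 1.01). The skeletal muscle regulator MYOD1, not tested, had 0 counts in both BMP2 day 21 libraries and 0.0811 and 0.0557 CPM untreated. The 6 fibroblast matrix genes went from 19.9 to 30.9 CPM to 5820 to 5850 CPM at RA day 21 and 32400 to 33500 CPM at BMP2 day 21. The BMP2 day 10 libraries stood apart from each other (Pearson r across genes 0.938, against 0.982 to 0.997 within the other groups), with POU5F1, a pluripotency factor, at 110 CPM in replicate 1 and 1.52 CPM in replicate 2.

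Levels are given below as CPM, scaled by the trimmed mean of M values (TMM), and changes as log2 fold changes with their standard error (SE). A gene was called when its Benjamini-Hochberg adjusted p over all 19142 genes, from edgeR's quasi-likelihood F test, was under 0.05. The labels do not say that the 2 libraries of a group came from separate cultures, so the p-values measure the spread between these libraries, which may be technical. Groups whose libraries do not overlap are described as such, and the share of all genes that separate in this way was not computed. With 2 libraries against 2, an exact permutation test cannot go below p = 0.333, so such separation is a description. In bulk RNA, fewer cells of a kind and less RNA per cell cannot be told apart. Levels of different subunits are not compared with each other, because the gene lengths behind the deposited RPKM values span introns, from 5875 bases for GTF2H4 to 235240 bases for MNAT1. No source used here says whether intron reads were counted, so the changes cannot be assigned to spliced RNA alone.

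**Figure D1:**
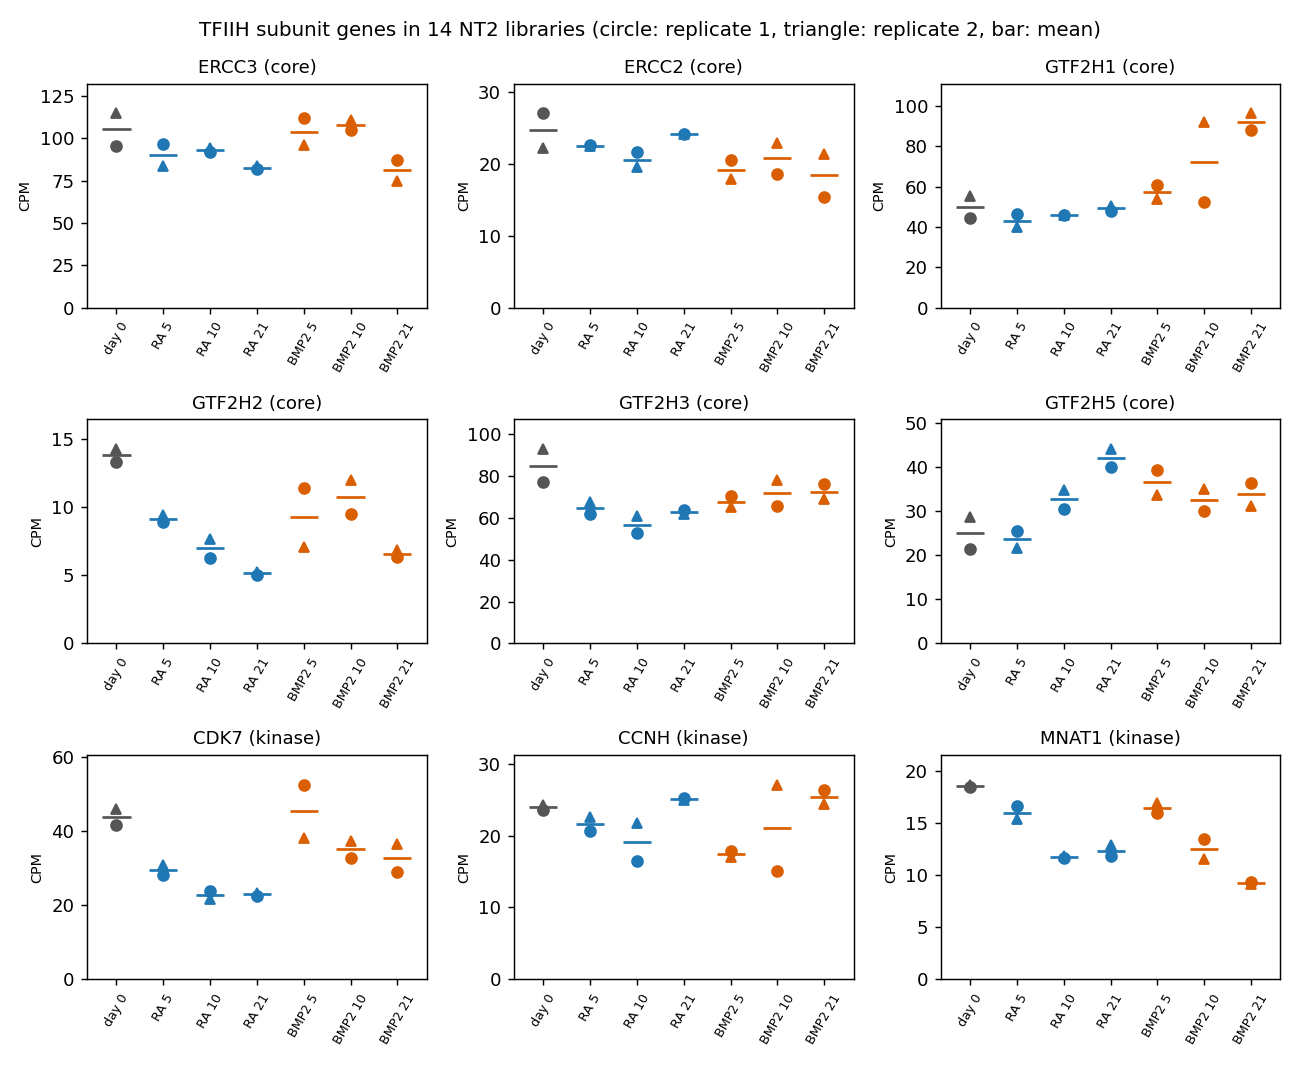
Level of each tested TFIIH subunit gene (vertical axis, TMM-scaled CPM from 0) in each library, by group (horizontal axis, agent and day); circles are replicate 1, triangles replicate 2 and horizontal bars the mean of 2 libraries. GTF2H2 goes from 13.3 and 14.3 CPM untreated to 5.02 and 5.25 CPM at RA day 21, while GTF2H1 goes from 44.3 and 55.3 CPM to 88.0 and 96.6 CPM at BMP2 day 21.

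The subunits did not move as one set. Over the 7 groups, 5 of the 9 tested members differed (CDK7 adjusted p = 0.0057, MNAT1 0.0087, GTF2H2 0.014, GTF2H1 0.016 and GTF2H5 0.034; edgeR F test over all groups), 3 of 6 core genes and 2 of 3 kinase genes. This is close to the background, since 55.4% of all genes tested were called. The other 4 members were not called (GTF2H3 0.094, ERCC3 0.13, CCNH 0.39 and ERCC2 0.41). DESeq2 called 7 of the 9 members over the 7 groups. In the limma tests on RPKM 3 members were called of the 7 tested, since GTF2H2 and MNAT1 fall under the RPKM minimum and were not tested there.

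Under RA the falls were in CDK7, GTF2H2, MNAT1 and GTF2H3, and the rise was in GTF2H5. At day 5, 0 of 9 members were called (edgeR; 3 at an unadjusted p under 0.05; 1 by DESeq2), against 2.72% of all genes called lower and 5.59% called higher. At day 10, 4 were called lower (11.1% of all genes) and 0 higher (12.9%). At day 21, 4 were called lower (21.1% of all genes) and 1 higher (23.4%). All 9 members had a fold change below 0 at day 5, 8 at day 10 and 7 at day 21, against 50.1%, 47.2% and 46.9% of all genes. The median log2 change of the 9 was −0.22, −0.33 and −0.35 at the 3 times, against 0.00, 0.06 and 0.10 over all genes.

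Under BMP2 the falls were in MNAT1 and GTF2H2, and the rise was in GTF2H1. At day 5, 0 of 9 were called (edgeR; 1 at an unadjusted p under 0.05; 1 by DESeq2), against 13.4% of all genes called lower and 15.9% called higher. At day 10, MNAT1 was the 1 member called lower (16.4% of all genes) and 0 were called higher (19.8%). At day 21, MNAT1 and GTF2H2 were called lower (22.1% of all genes) and GTF2H1 higher (25%). Below 0 were 6 of 9 members at each of the 3 times, against 50%, 47.7% and 48.4% of all genes, and the medians were −0.18, −0.25 and −0.38, against 0.00, 0.05 and 0.04. These 3 comparisons and those of RA share the untreated libraries.

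**Figure D2:**
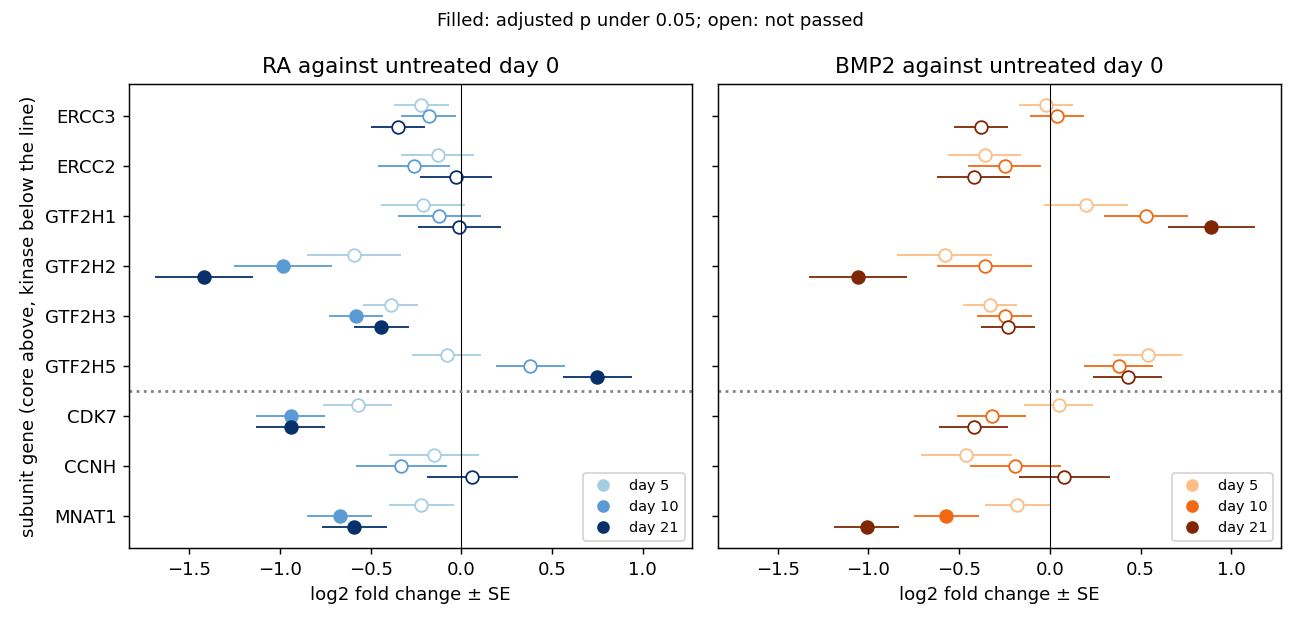
log2 fold change against untreated day 0 with its standard error (horizontal axis) for each tested subunit (vertical axis, core genes above and kinase genes below the dotted line), under RA and under BMP2 at days 5, 10 and 21; filled points had an adjusted p under 0.05. GTF2H2 reaches −1.42 at RA day 21 and −1.06 at BMP2 day 21, GTF2H1 reaches 0.89 at BMP2 day 21 and GTF2H5 reaches 0.75 at RA day 21.

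Among the helicases, ERCC3 stood at 95.5 and 115 CPM in untreated cells. With RA it held 96.7 and 83.9 CPM (day 5), 91.9 and 94.0 (day 10) and 81.6 and 83.7 (day 21). With BMP2 it held 112 and 95.8 CPM (day 5), 105 and 111 (day 10) and 86.9 and 75.0 (day 21). Both day 21 groups lay below the untreated libraries without overlap, but neither difference was called (RA −0.35 ± 0.15 SE, adjusted p = 0.081; BMP2 −0.38 ± 0.15, 0.060; edgeR). The 95% intervals of these changes ran from −0.68 to −0.02 and from −0.71 to −0.05. The RA day 21 difference was called under RLE scaling, DESeq2 or a fit of the compared libraries alone (lowest adjusted p = 0.021), and the BMP2 difference under RLE scaling, a CPM filter, DESeq2 and limma (lowest 0.016). In order of group means ERCC3 ran from BMP2 day 10 at 108 CPM to BMP2 day 21 at 80.9 CPM, a ratio of 1.33, and the first 3 groups (BMP2 day 10, untreated and BMP2 day 5) overlapped each other in turn.

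ERCC2, the helicase that verifies damage in repair, stood at 27.1 and 22.2 CPM untreated. Its RA libraries held 22.6 and 22.5 CPM (day 5), 21.6 and 19.5 (day 10) and 24.1 and 24.2 (day 21), and its BMP2 libraries 20.5 and 17.9, 18.6 and 22.9, and 15.4 and 21.4 CPM. The untreated range overlapped RA day 5, RA day 21 and BMP2 day 10 and lay above the other 3 groups, and ERCC2 was called in 0 of the 12 comparisons (edgeR; 0 at an unadjusted p under 0.05). Its largest change was −0.42 ± 0.20 SE at BMP2 day 21 (95% interval −0.88 to 0.03, adjusted p = 0.11; 0.043 in a limma alternative). The gene KLC3 overlaps 8.0% of the ERCC2 span on the opposite strand in GENCODE v29 and had 12 to 84 counts per library. Of 4 genes that load the iron-sulphur cluster into XPD, 1 rose at RA day 21 (CIAO2B, 0.81 ± 0.16 SE, adjusted p = 0.0026), a share close to the 23.4% of all genes called higher, and 0 were called at BMP2 day 21.

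Among the scaffold subunits, GTF2H1 was the member with a BMP2 rise. Its protein is the docking subunit for repair and activator proteins. It stood at 44.3 and 55.3 CPM untreated, at 60.8 and 53.7 CPM at BMP2 day 5, then 52.3 and 92.0 CPM (day 10) and 88.0 and 96.6 CPM (day 21). Under RA it stayed between 39.8 and 50.6 CPM at all 3 times. Every BMP2 day 21 library lay above every untreated and every RA library. The change at BMP2 day 21 was 0.89 ± 0.24 SE (1.85-fold, 95% interval 0.36 to 1.41, adjusted p = 0.011), while at RA day 21 it was −0.01 ± 0.23 (95% interval −0.54 to 0.51, adjusted p = 0.97). The difference between the treatments was itself called at day 21 (RA minus BMP2 −0.90 ± 0.24, adjusted p = 0.035), the 1 member called lower there (6.07% of all genes) with 0 called higher (5.99%). The BMP2 call ended without untreated replicate 1 or BMP2 day 21 replicate 2 (adjusted p up to 0.089), and the call between treatments ended in 7 of 24 alternatives (up to 0.20): without RA day 5 replicate 1 or any 1 of the 6 libraries of untreated day 0, RA day 21 and BMP2 day 21. At BMP2 day 10 the change was 0.53 ± 0.23 (adjusted p = 0.10) over libraries of 52.3 and 92.0 CPM, and without replicate 1 it was 0.88 (adjusted p = 0.0032). Replicate 1, the lower of the pair, was also the library with 110 CPM of POU5F1.

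GTF2H2, whose protein activates XPD, had the largest falls of the members. It stood at 13.3 and 14.3 CPM untreated and at 8.93 and 9.41, 6.30 and 7.69, and 5.02 and 5.25 CPM at RA days 5, 10 and 21. Under BMP2 it was at 11.4 and 7.11, 9.49 and 12.0, and 6.32 and 6.86 CPM. All 12 treated libraries lay below both untreated ones. The change was −0.98 ± 0.27 SE at RA day 10 (adjusted p = 0.025), −1.42 ± 0.27 at RA day 21 (0.373 of the untreated level, adjusted p = 0.0021) and −1.06 ± 0.27 at BMP2 day 21 (0.478 of it, adjusted p = 0.0085). From RA day 5 to RA day 21 it fell by 0.84 ± 0.27 (adjusted p = 0.040). The RA day 21 call was kept in 22 of 22 alternatives. The BMP2 day 21 call ended without BMP2 day 21 replicate 1 (0.051). The RA day 10 call ended without any 1 of the 6 libraries of untreated day 0, RA day 10 and RA day 21 (up to 0.17). The call between RA days ended in 9 of 22 alternatives (up to 0.17): with no filter, with the replicate block, and without BMP2 day 21 replicate 1 or any 1 of the untreated, RA day 5 and RA day 21 libraries.

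The GTF2H2 values are uncertain because near-identical copies of the gene lie in the same duplicated region and reads may be split between them. GTF2H2C and GTF2H2B were in the table, and the copies GTF2H2D and GTF2H2C_2 were not matched in it. GTF2H2C stood at 24.8 and 32.5 CPM untreated, 11.7 and 12.8 CPM at RA day 21 and 15.9 and 17.3 CPM at BMP2 day 21. It fell at RA day 21 (−1.23 ± 0.32 SE, adjusted p = 0.012) and was not called at BMP2 day 21 (−0.79 ± 0.32, 0.067). GTF2H2B was at 2.92 and 4.8 CPM untreated and was called at RA day 10 (−1.24 ± 0.40, adjusted p = 0.046). Summed over the 3 genes, the level was 41.0 and 51.6 CPM untreated, 18.9 and 20.1 CPM at RA day 21 and 24.5 and 26.0 CPM at BMP2 day 21. The sum thus also lay lower in both day 21 groups without overlap, and GTF2H2 made up 25.4% to 34.6% of it in every library. Reads of the unmatched copies, or reads set aside in counting, would be missing from this sum, so the doubt remains.

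GTF2H3, a scaffold subunit that pairs with the GTF2H2 product, stood at 77 and 93.1 CPM untreated. It was at 62.0 and 67.6, 52.8 and 60.8, and 63.9 and 62.0 CPM at RA days 5, 10 and 21, and at 70.5 and 65.1, 65.5 and 78.0, and 76.0 and 69.1 CPM under BMP2. All RA libraries and all BMP2 day 5 and day 21 libraries lay below both untreated libraries, and 1 BMP2 day 10 library, at 78.0 CPM, lay between them. The fall was called at RA day 10 (−0.58 ± 0.15 SE, adjusted p = 0.021) and RA day 21 (−0.44 ± 0.15, 0.041), and not under BMP2 (day 21 −0.23 ± 0.15, 95% interval −0.57 to 0.11, 0.24). RA against BMP2 was not called at day 21 (−0.21 ± 0.15, 0.40). The RA day 10 call ended in 7 of 24 alternatives (adjusted p up to 0.17): both limma tests, and without untreated replicate 2 or any RA day 10 or RA day 21 library. The RA day 21 call ended in 11 of 24 (up to 0.27): both limma tests, no filter, and without untreated replicate 2, either BMP2 day 5 library, BMP2 day 21 replicate 1, or any RA day 5 or RA day 21 library.

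GTF2H5, the smallest subunit, needed for the stability of the complex and for repair, was the member that rose under RA. It stood at 21.4 and 28.6 CPM untreated, 25.5 and 21.7 CPM at RA day 5, then 30.4 and 34.8 CPM (day 10) and 39.9 and 44.1 CPM (day 21). Under BMP2 it was at 39.2 and 33.7, 29.9 and 35.0, and 36.4 and 31.2 CPM. The RA day 21 libraries were the highest of all 14, and every BMP2 library lay above both untreated ones. The rise was 0.75 ± 0.19 SE against untreated cells (1.68-fold, adjusted p = 0.010) and 0.83 ± 0.19 against RA day 5 (adjusted p = 0.011). With BMP2 the changes of 0.54 ± 0.19 (day 5, adjusted p = 0.057), 0.38 ± 0.19 (day 10, 0.15) and 0.43 ± 0.19 (day 21, 0.088) were not called. GTF2H5 at BMP2 day 5 was called in 7 of 24 alternatives (lowest adjusted p = 0.029), among them those without BMP2 day 10 replicate 1, replicate 2 or both. The RA day 21 call ended without untreated replicate 1 or RA day 21 replicate 2 (up to 0.090), and the call between RA days without RA day 5 replicate 2 or either RA day 21 library (up to 0.098).

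GTF2H4, the scaffold subunit that holds XPB, could not be assessed, with 0 to 2 counts per library. In GENCODE v29, 99.0% of its span lies within VARS2 on the same strand, and VARS2 had 570 to 1320 counts per library. No source used here says whether the counting set reads of GTF2H4 aside or gave them to VARS2, so these counts are not a level of the gene.

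In the kinase module, CDK7, the catalytic subunit, stood at 41.6 and 45.8 CPM untreated. Its RA levels were 28.2 and 30.7 CPM (day 5), 23.9 and 21.6 (day 10) and 22.5 and 23.2 (day 21). The BMP2 libraries held 52.5 and 38.1, 32.8 and 37.4, and 29 and 36.5 CPM. All 6 RA libraries lay below both untreated libraries, and at each day below both BMP2 libraries of that day. The change was −0.94 ± 0.19 SE at RA day 10 (0.520 of the untreated level, adjusted p = 0.0069) and −0.94 ± 0.19 at RA day 21 (0.522 of it, adjusted p = 0.0032). The RA day 5 change was not called (−0.57 ± 0.19, 0.096; DESeq2 0.028), nor was BMP2 at day 21 (−0.42 ± 0.19, 0.094; lowest 0.039 by limma). RA against BMP2 gave −0.62, −0.63 and −0.52 at days 5, 10 and 21, each ± 0.19 SE and none called (adjusted p = 0.059, 0.061 and 0.099). CDK7 at day 5 was called lower under RA than BMP2 in 6 of 24 alternatives, at day 10 in 3 of 23 and at day 21 by DESeq2 alone (0.044). The RA day 21 call was kept in 24 of 24 alternatives, and the RA day 10 call ended without untreated replicate 2 or RA day 10 replicate 2 (up to 0.058).

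MNAT1, which assembles the kinase and ties it to the core, stood at 18.5 and 18.7 CPM untreated. It was at 16.6 and 15.4, 11.6 and 11.8, and 11.8 and 12.9 CPM at RA days 5, 10 and 21. Under BMP2 it was at 16.0 and 16.9, 13.5 and 11.5, and 9.36 and 9.11 CPM, so that all 12 treated libraries lay below both untreated ones. It fell at BMP2 day 10 (−0.57 ± 0.18 SE, adjusted p = 0.029) and BMP2 day 21 (−1.01 ± 0.18, 0.496 of the untreated level, adjusted p = 0.0013). It fell at RA day 10 (−0.67 ± 0.18, 0.022) and RA day 21 (−0.59 ± 0.18, 0.021). Between BMP2 days 5 and 21 it fell by 0.83 ± 0.18 (adjusted p = 0.019), the 1 member called lower in that comparison (7.75% of all genes) with 0 higher (7.77%). RA and BMP2 did not differ by the test at day 21 (0.42 ± 0.18, 95% interval 0.03 to 0.82, adjusted p = 0.14; DESeq2 0.042). The BMP2 day 21 call was kept in 22 of 22 alternatives.

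The other MNAT1 calls each depended on single libraries. At RA day 10 the call ended in 8 of 22 alternatives (adjusted p up to 0.14), with no filter, in a fit of the compared libraries alone, and without any 1 of the untreated, RA day 10 and RA day 21 libraries. At RA day 21 it ended in 5 of 22 (up to 0.14), with no filter and without any untreated or RA day 21 library. At BMP2 day 10 it ended in 12 of 21 (up to 0.24), with no filter, with the compared libraries alone, and without replicate 2 of BMP2 day 5, day 10 or day 21 or of RA day 5, or any untreated, RA day 10 or RA day 21 library. The MNAT1 fall between BMP2 days ended in 5 of 22 (up to 0.11), with the compared libraries alone and without any BMP2 day 5 or day 21 library.

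CCNH, the cyclin of the module, was not called where its partners were, and the genes were not tested against each other. CCNH stood at 23.6 and 24.3 CPM untreated, 20.6 and 22.6 at RA day 5, then 16.5 and 21.7 CPM (day 10) and 25.2 and 24.9 CPM (day 21). Under BMP2 it was at 17.9 and 17.0, 15.1 and 27.1, and 26.3 and 24.4 CPM. Its libraries were lower than untreated at day 5 of both treatments and at RA day 10, and above them at day 21 of both. CCNH was called in 0 of the 12 comparisons (edgeR; 0 at an unadjusted p under 0.05), with changes of 0.06 ± 0.25 SE at RA day 21 (95% interval −0.49 to 0.62) and 0.08 ± 0.25 at BMP2 day 21 (−0.48 to 0.64). The BMP2 day 10 libraries lay at 15.1 and 27.1 CPM, and without replicate 2 the change there was called (adjusted p = 0.039). In GENCODE v29, RASA1 overlaps 77.7% of the CCNH span on the opposite strand, and no source used here says whether the counting used strand. The length behind the CCNH values in the deposited table was 21526 bases, 22.8% of that span, so the authors' model of the gene was shorter than the one in GENCODE v29.

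Some count ratios between subunits within a library differed between the groups. The ratios were chosen after the values were seen and carry no test, and since gene lengths enter them, only their differences between groups can be read. CDK7 counts were 1.76 and 1.88 times those of CCNH in untreated cells, 0.892 and 0.930 times at RA day 21, and 2.93 and 2.24 times at BMP2 day 5. The CDK7 to CCNH ratio was thus lower in both RA day 21 libraries, and higher in both BMP2 day 5 libraries, than in untreated cells. At BMP2 day 21 this ratio was 1.1 and 1.5, also lower than untreated, and at BMP2 day 10 it was 2.17 and 1.38. MNAT1 counts were 0.783 and 0.770 of those of CCNH untreated, 0.468 and 0.519 at RA day 21, and 0.356 and 0.373 at BMP2 day 21. Between core and kinase, GTF2H1 counts were 2.40 and 2.95 times those of MNAT1 untreated and 9.41 and 10.6 times at BMP2 day 21. At BMP2 day 10 that last ratio was 3.88 in replicate 1 and 7.97 in replicate 2. Ratios of CDK7 to MNAT1, and of GTF2H1 and GTF2H5 to GTF2H3, also differed from untreated cells at day 21. CDK7 to MNAT1 was 2.25 and 2.45 untreated, 1.9 and 1.79 at RA day 21 and 3.09 and 4.01 at BMP2 day 21. GTF2H1 to GTF2H3 was 0.576 and 0.594 untreated, 0.752 and 0.816 at RA day 21 and 1.16 and 1.4 at BMP2 day 21. GTF2H5 to GTF2H3 was 0.278 and 0.307, 0.625 and 0.711, and 0.479 and 0.451 in these groups. The ERCC2 to ERCC3 ratio varied between the untreated libraries. ERCC2 counts were 0.284 and 0.194 of those of ERCC3 untreated, 0.295 and 0.290 at RA day 21, and 0.178 and 0.285 at BMP2 day 21.

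As group means over genes, the kinase genes lay lower than the core genes at days 10 and 21 of both treatments. With the untreated mean as 0, the mean log2 level of the 3 kinase genes at RA day 10 was −0.70 and −0.60, and that of the 6 core genes −0.33 and −0.24. At RA day 21 the kinase means were −0.51 and −0.46 and the core means −0.27 and −0.22. At BMP2 day 21 the kinase means were −0.48 and −0.42 and the core means −0.14 and −0.11. The core minus kinase difference was −0.06 and 0.06 in untreated libraries, −0.01 to 0.17 at day 5 of both treatments, and 0.24 to 0.42 in the 8 libraries of days 10 and 21. These means hide opposite members: the core mean holds falling GTF2H2 with rising GTF2H5 under RA and rising GTF2H1 under BMP2, and the kinase mean at RA day 21 holds falling CDK7 and MNAT1 with CCNH at 0.06 ± 0.25 SE, not called.

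**Figure D3:**
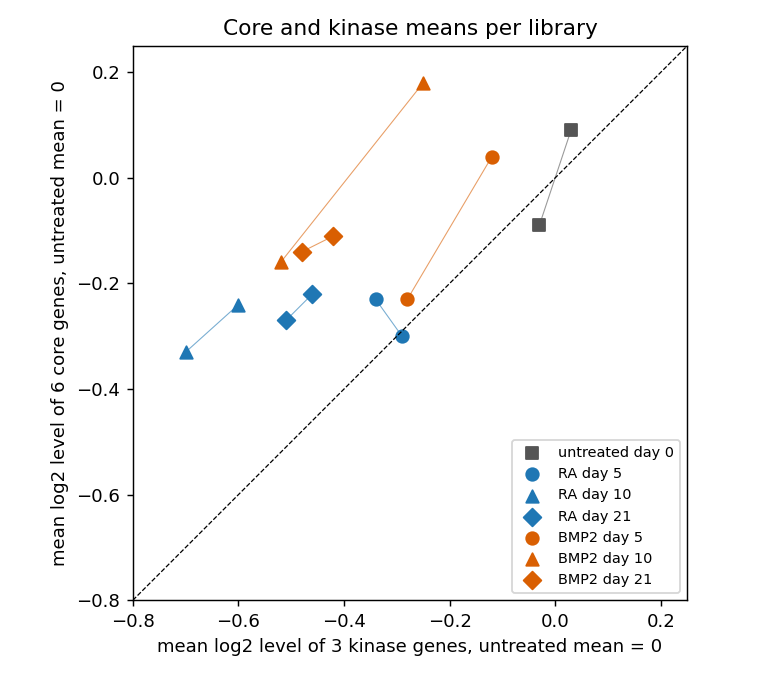
Mean log2 level of the 6 tested core genes (vertical axis) against that of the 3 kinase genes (horizontal axis) in each library, each relative to its untreated mean; thin lines join the 2 libraries of a group and the dashed line marks equality. The 8 libraries of days 10 and 21 lie above the line, with core minus kinase between 0.24 and 0.42.

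Across the 14 libraries, likeness did not follow the division into core and kinase. Pearson r of log2 CPM had a median of 0.00 over the 15 pairs of core genes (−0.54 to 0.76), −0.09 over the 3 kinase pairs (−0.28 to 0.48) and 0.32 over the 18 core and kinase pairs (−0.61 to 0.76), against a median of 0.00 over pairs of all genes tested. Over the 7 group means the medians were 0.09, −0.20 and 0.32. Libraries of a group share their treatment, so these values are descriptions, and no p is given. The closest pairs were GTF2H2 with ERCC3 (r = 0.76), GTF2H2 with CDK7 (0.76) and GTF2H3 with CDK7 (0.70). Of the genes tested, 0.554% were at least as like ERCC3 as GTF2H2 was, and 4.74% at least as like GTF2H2 as ERCC3 was. For CDK7 and GTF2H2 these shares were 1.11% and 4.38%. GTF2H2 and CDK7 both lie on chromosome 5, as does CCNH, whose r with them was −0.03 and −0.09. The most opposed pairs were GTF2H1 with MNAT1 (r = −0.61) and GTF2H2 with GTF2H5 (−0.54).

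**Figure D4:**
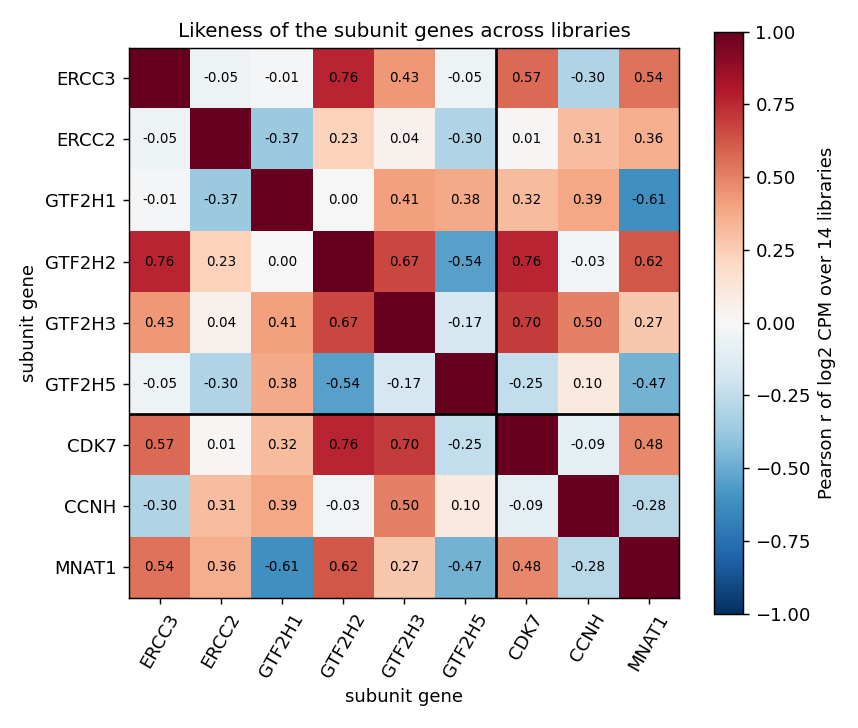
Pearson r of log2 CPM over 14 libraries for each pair of tested subunit genes (both axes), on a colour scale from −1 to 1; black lines separate core from kinase genes. Values of 0.76 for GTF2H2 with ERCC3 and with CDK7 stand beside −0.61 for GTF2H1 with MNAT1 and −0.09 for CDK7 with CCNH.

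Among 11849 genes with a mean of at least 5 CPM, those most like the mean profile of the core genes were TIMM17A (r = 0.913), SLC25A4 (0.889) and FTSJ1 (0.889). TIMM17A and SLC25A4 encode proteins of the inner mitochondrial membrane. Those most like the kinase profile were EIF2S2 (r = 0.937), a translation initiation factor subunit, SLC39A14 (0.926), a metal transporter, and RPE (0.921), an enzyme of the pentose phosphate pathway. The members' own r with these means, which they help to form, ran from 0.106 for GTF2H5 to 0.800 for GTF2H3 in the core and from 0.350 for CCNH to 0.773 for CDK7 in the kinase module. With the kinase mean, core genes ran from −0.344 for GTF2H5 to 0.820 for GTF2H3, which lay above every kinase gene. With the core mean, kinase genes ran from 0.239 for MNAT1 to 0.713 for CDK7.

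Between treatments and over time few members were called. RA against BMP2 gave 0 of 9 at day 5 (edgeR; 2 at an unadjusted p under 0.05, 2 by DESeq2), against 5.97% of all genes higher and 6.25% lower. At day 10 it gave 0 of 9 (edgeR; 3 at an unadjusted p under 0.05, 1 by DESeq2), against 5.11% and 5.73%. From RA day 5 to day 21, GTF2H5 was the 1 member called higher (13.9% of all genes) and GTF2H2 the 1 called lower (14.8%). The change from day 5 to day 21 was called as different between RA and BMP2 for 0 members (edgeR; 1 at an unadjusted p under 0.05, 1 by DESeq2), against 1.64% of all genes. GTF2H5 was that member, with a difference of 0.94 ± 0.27 SE (adjusted p = 0.10; 0.026 at the lowest in the alternatives). At BMP2 day 21 against day 5, GTF2H1 (0.69 ± 0.24, adjusted p = 0.071) and CCNH (0.54 ± 0.25, 0.16) were not called, and both were without either BMP2 day 10 library (lowest 0.0079 and 0.038).

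The genes that work beside TFIIH changed in both directions. Of 17 partners in the incision step of excision repair, 5 rose and 6 fell at RA day 21, and 6 rose and 6 fell at BMP2 day 21, against 23.4% and 21.1% of all genes under RA and 25% and 22.1% under BMP2. RPA3, a subunit of the single-strand binding protein, fell in both (RA −1.19 ± 0.30 SE, adjusted p = 0.0095; BMP2 −1.66 ± 0.30, 0.0016). RPA1, of the same complex, fell under RA (−0.99 ± 0.24, 0.0080), and ERCC6, the transcription-coupled repair factor CSB, rose under BMP2 (1.56 ± 0.23, 0.00053). Median changes of the 17 were 0.37 and 0.57, where those of the 9 TFIIH members were −0.35 and −0.38 and those of all genes 0.10 and 0.04. Of 20 other general transcription factor genes tested, 2 rose and 5 fell at RA day 21 and 3 rose and 5 fell at BMP2 day 21. Among them TAF5 and TAF4, subunits of TFIID, fell by 1.73 ± 0.30 and 0.98 ± 0.21 under RA and by 2.12 ± 0.31 and 1.47 ± 0.22 under BMP2 (adjusted p = 0.0014, 0.0045, 0.00047 and 0.00051).

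For the lists that follow, the shares of all genes called were 23.4% higher and 21.1% lower at RA day 21, and 25% higher and 22.1% lower at BMP2 day 21. Of 12 RNA polymerase II subunit genes, 2 rose and 5 fell at RA day 21, and 0 rose and 10 fell at BMP2 day 21. POLR2L rose under RA (1.18 ± 0.19 SE, adjusted p = 0.00082) and POLR2B, the second-largest subunit, fell (−0.89 ± 0.13, 0.00064), while POLR2D (−1.13 ± 0.15, 0.00033) and POLR2F (−1.04 ± 0.21, 0.0029) fell under BMP2. Of 9 genes of other transcription kinases and their cyclins, 1 rose and 8 fell in each day 21 comparison. CDK19, of the Mediator kinase module, rose by 2.54 ± 0.23 under both agents (adjusted p = 8.6e-05 and 7.5e-05), and CCNC, the cyclin of that module, fell by 1.23 ± 0.16 and 1.01 ± 0.16 (0.00036 and 0.00082). Among 10 genes of cell cycle kinases, which CDK7 helps to activate, and their cyclins, 1 rose and 4 fell under RA, and 3 rose and 5 fell under BMP2. CDK6 rose in both (2.41 ± 0.41, adjusted p = 0.0013, and 3.15 ± 0.43, 0.00034), CCNE1 fell under RA (−2.47 ± 0.27, 0.00015) and CCNA2 under BMP2 (−3.51 ± 0.42, 2e-04). The RA and BMP2 values share their untreated libraries and were not compared as independent results.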

How the data were processed

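Total RNA of 14 NT2 libraries was sequenced. The deposited table holds raw read counts per Ensembl gene, made by the authors; per the submitters' processing notes STAR, featureCounts, DESeq2 and hg19 were used, with no versions or roles given. A second table by the authors holds RPKM. Between 66.0% and 73.5% of counts from 1 to 19 were even numbers, so the counts may hold each read of a pair and then exceed the number of fragments. No coordinates were taken from the files. Overlaps of genes come from GENCODE v29 on GRCh38, another build than the files, and promoters from RefSeq.

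Counts were fitted over all 14 libraries with edgeR 4.0.16 in R 4.3.3: TMM scaling, the filterByExpr filter at 10 counts, 1 mean per group, quasi-likelihood F tests in 12 comparisons and 1 test over the 7 groups, with Benjamini-Hochberg adjustment over 19142 genes, which hold 99.99% of the counts. The SE is the fold change divided by the square root of F, and the 95% intervals use 7 residual and 3.08 prior degrees of freedom. With 2 libraries against 2, an exact permutation test cannot go below p = 0.333, so none was run. The script was tested on simulated data. The 24 alternatives included DESeq2 1.42.0, limma 3.58.1 on log2(RPKM + 1) and log2(RPKM + 0.1) for genes of at least 0.5 RPKM in 2 libraries, RLE factors, other filters, a replicate block, and each library left out. Python 3.11.15 and matplotlib 3.10.9 drew the figures.

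The members, lists and tests were chosen with earlier results of these data known. Named genes are all members, the GTF2H2 copies, at most the 2 called genes per list and day 21 comparison with the largest changes, and the 3 genes most like each module's mean profile. The RBFOX3, POU5F1 and MYOD1 values were added to describe the cells. Replicate numbers follow the titles, since the RA day 21 descriptions carry other numbers.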

Additional observations from a re-analysis of the deposited data

How the results depend on the processing

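Over the 9 tested members and their comparisons, 2385 values kept their side of the threshold under the alternatives, 80 calls were lost, 61 were gained and 0 reversed. Against the counts of called members given in the report, DESeq2 gave 1 at RA day 5, 1 at BMP2 day 5, 2, 1 and 3 for RA against BMP2 at days 5, 10 and 21, 2 for BMP2 day 21 against day 5 and 1 for the difference of time courses. Both limma tests on RPKM, which lack GTF2H2 and MNAT1 and whose offset shrinks changes of low values, gave 2 at RA day 10, 2 at RA day 21, 1 at BMP2 day 5, 0 at BMP2 day 10, 1 and 3 for RA against BMP2 at days 5 and 21, 1 for RA day 21 against day 5, 1 for the difference of time courses and 3 over the 7 groups. With no low-count filter, 3 were called at RA day 21, 0 at BMP2 day 10 and 1 for RA day 21 against day 5. A filter of 1 CPM in 2 libraries gave 1 at BMP2 day 5 and 2 for RA against BMP2 at day 5, and leaving out both BMP2 day 10 libraries gave 1 and 2 there and 3 for BMP2 day 21 against day 5. With only the libraries compared in the fit, 0 were called at BMP2 day 10 and 0 for BMP2 day 21 against day 5, with fewer libraries to estimate the spread. RLE factors gave 6 at RA day 21 and 4 at BMP2 day 21, and under them the median of all genes moved by at most 0.061 in size. The causes of the other differences were not tested.

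Leaving out 1 library at a time gave 0 at RA day 5, 0 to 4 at RA day 10, 2 to 5 at RA day 21, 0 to 1 at BMP2 day 5, 0 to 2 at BMP2 day 10 and 2 to 3 at BMP2 day 21. It gave 0 to 2, 0 to 2 and 0 to 1 for RA against BMP2 at days 5, 10 and 21, 0 to 2 for RA day 21 against day 5, 0 to 3 for BMP2 day 21 against day 5, 0 for the difference of time courses and 3 to 6 over the 7 groups. A group left with 1 library is assumed to vary like the others. With the replicate block, 1 member in place of 2 was called for RA day 21 against day 5, and no other count moved by over 1.5 times. Deviations of libraries with the same number had correlations of −0.48 to 0.26 over 21 pairs of groups (4 above 0.1). With only the difference between 2 libraries from each group, these values cannot show whether replicate numbers pair libraries. The labels do not say that they do.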
